A study of Mus musculus with 12 samples.

Results

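Malat1, Neat1 and Tug1 are 3 long noncoding RNA (lncRNA) genes whose transcripts are known for high levels in the nucleus. They were chosen by name, with earlier results of these data known, among 12727 lncRNA genes and 49943 genes of all kinds in the RefSeq table of GRCm38. For each gene, the S9.6 peaks that overlapped its body or the 1 kb on either side were collected. This gave 8 of 28717 peaks in the HEPA1-6 list and 4 of 14908 peaks in the liver-labelled list. The libraries were made from genomic DNA, so the level of the 3 transcripts was not measured here.

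R-loops form where a nascent RNA pairs with its template DNA strand and leaves the other strand single. The S9.6 antibody binds the RNA-DNA hybrid, and RNase H1 degrades the hybrid's RNA. Malat1 RNA gathers in nuclear speckles, bodies rich in splicing factors. Its 3′ end is cut by RNase P, which releases a small tRNA-like RNA called mascRNA. Neat1 RNA is the scaffold of paraspeckles and is made as a short and a long isoform from the same start. Tug1 RNA is found in both nucleus and cytoplasm.

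HEPA1-6 is a mouse hepatoma cell line, and the liver came from C57/Bl6 mice. All libraries are labelled wild type and untreated, and the animals' age and number are not given in the sources used here. There are 12 libraries in 6 groups of 2: S9.6 immunoprecipitate (IP), RNase H1 treated IP and input DNA, for each source. The data were 1 peak list per source, named as a merged IP against input, so neither single libraries nor the RNase H1 treatment could be compared here. No difference between the sources therefore has a replicate check or a p-value, and the depth behind the peaks is unknown.

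The authors' score, a whole number of 10 or more, had a median of 21 in the HEPA1-6 list and 22 in the liver-labelled one. Its scale is not stated, and it is used here as the authors' own value, to rank peaks within a list. The deposited strand was missing for 4.10% of HEPA1-6 and 15.3% of liver-labelled peaks. In the list labelled liver, 7 of 30 hepatocyte genes (23.3%) and 21 of 30 cell cycle genes held a peak, where 29.7% of all protein-coding genes did. The hepatocyte share was thus near that of protein-coding genes at large, while the cell cycle share (70%) was above it. The list is therefore named here by its label. In HEPA1-6 these counts were 9 and 28, beside 42.0% of protein-coding genes.

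All 3 genes held a peak in both lists. The share of all lncRNA genes with a peak was 13.6% in HEPA1-6 and 8.97% in the other list. The 3 genes differed in where the peaks lay: over the whole of Malat1, over the 5′ part and scattered stretches of Neat1, and over the 5′ end of Tug1. The HEPA1-6 list covered 100% of Malat1, 56.8% of Neat1 and 10.8% of Tug1. The liver-labelled list covered 100%, 33.6% and 7.20%, and so kept the same order. At least 50% of the gene body was covered in 2.70% (HEPA1-6) and 1.10% (liver-labelled) of lncRNA genes. Malat1 passed this mark in both lists and Neat1 in HEPA1-6, while Tug1 passed it in neither.

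**Figure D1:**
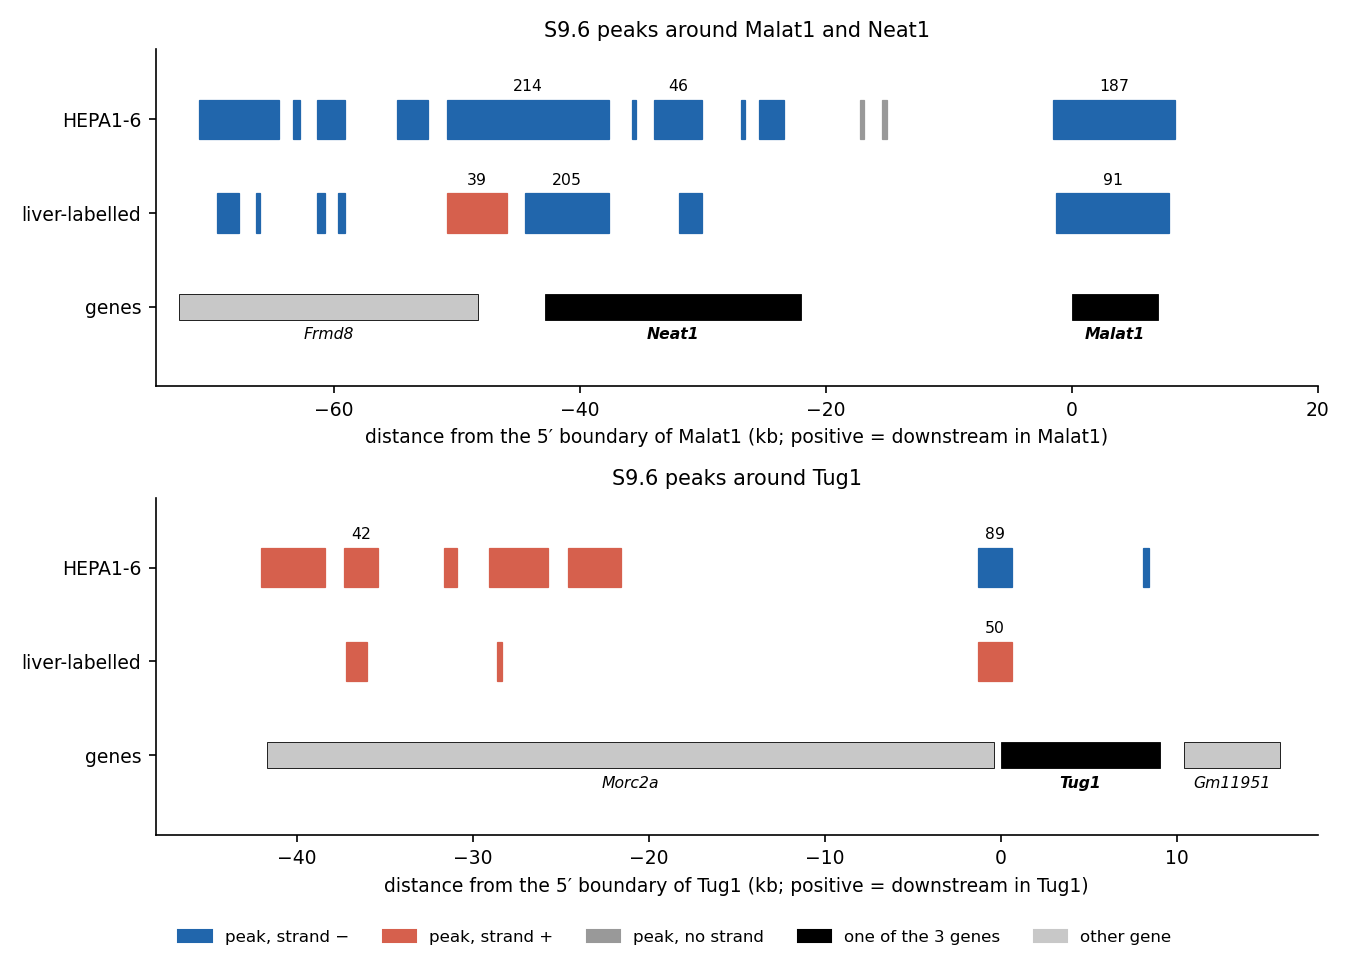
Peaks of both lists (bars, coloured by the authors' strand) and genes (bottom row) by distance in kb from the 5′ boundary of Malat1 (top panel) or Tug1 (bottom panel). Numbers above bars are the authors' scores of 38 or more. A single peak spans Malat1 in each list (scores 187 and 91), while the peak at the start of Tug1 has the same extent but opposite strands (scores 89 and 50).

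Malat1 (gene ID 72289, chromosome 19, 5795690 to 5802672, minus strand) is 6983 bp long. In HEPA1-6 it lay within 1 peak, chr19:5794298-5804218, of 9921 bp. This peak began 1546 bp before the 5′ boundary of the gene and ended 1392 bp past the 3′ boundary. In the liver-labelled list it lay within 1 peak, chr19:5794734-5803944, of 9211 bp. The liver-labelled peak reached 1272 bp and 956 bp beyond the 5′ and 3′ boundaries. It lay entirely inside the HEPA1-6 peak and made up 92.8% of it. Both peaks carried the minus strand, which is the strand of Malat1. Both also covered all 58 bp annotated for mascRNA (5795924 to 5795981), so the 3′ end that RNase P cuts was inside the peak in each list.

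The Malat1 peak scored 187 in HEPA1-6, which was rank 222 of 28717 and the 99.2nd percentile. It scored 91 in the liver-labelled list, which was rank 366 of 14908 and the 97.6th percentile. These were 8.90 and 4.14 times the list medians. Both peaks were also wide for their lists, at width ranks 583 and 115. Among peaks of 0.5 to 2 times its width, the Malat1 peak stood at percentile 97.7 in the HEPA1-6 list and 91.7 in the liver-labelled one.

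A gene covered from end to end was uncommon. In HEPA1-6, 117 lncRNA genes (0.919%) were covered completely, and in the liver-labelled list 41 (0.322%). These genes were mostly short, with median lengths of 1984 bp and 1581 bp. By length, Malat1 was number 4 among the 117 and number 2 among the 41. Many lncRNA genes lie beside or inside a protein-coding gene, so a peak in their window may also lie in that gene. Whether each peak did so was not counted. The window of 81.1% of lncRNA genes with a HEPA1-6 peak, and of 77.1% of those with a liver-labelled peak, also overlapped a protein-coding gene. Malat1 had no protein-coding gene within 1 kb, and the same held for 7323 of all 12727 lncRNA genes. Of these 7323 genes, 329 (4.49%) had a peak in the HEPA1-6 list and 261 (3.56%) in the liver-labelled one. Only 14 and 10 of them were covered completely, and Malat1 was the second longest of the 14 and the longest of the 10.

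The sequence at the start of Malat1 is shown because the peak of each list covered all of it. It is the RefSeq promoter window (GRCm38.p6, chr19:5802623-5802922, minus strand), from 250 bases before to 50 bases after the start, which is base 251. Capitals mark runs of GGG or longer.
Malat1 promoter: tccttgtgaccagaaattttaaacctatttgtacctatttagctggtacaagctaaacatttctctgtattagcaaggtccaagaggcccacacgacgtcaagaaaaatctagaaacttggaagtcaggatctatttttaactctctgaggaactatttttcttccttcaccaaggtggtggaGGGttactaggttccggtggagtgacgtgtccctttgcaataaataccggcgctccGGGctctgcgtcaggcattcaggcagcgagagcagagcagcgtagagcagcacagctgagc
This window had a GC content of 47%, at percentile 29.7 of 32851 promoter windows (median 52.7%). It held 2 runs of GGG or longer and 2 of CCC or longer, which are runs of G on the other strand. The medians over all windows were 5 and 4, and 96.5% and 95.8% of windows held at least 1 run. Its GC skew, (G - C)/(G + C) on the gene's strand, was 0.035 against a median of 0.013. Of the 11074 windows within 5 percentage points of this GC content, 5.18% touched a peak in the HEPA1-6 list and 3.12% in the liver-labelled one. For all windows, the shares were 15.3% and 9.85%. The Malat1 start was therefore inside a peak in both lists although few windows of like GC content were.

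Neat1 (gene ID 66961, chromosome 19, 5824708 to 5845480) is 20773 bp long and lies 22.0 kb upstream of Malat1, on the same strand. Its strand is given here as background, since the promoter table was matched for 2 of the 3 genes only, Malat1 and Tug1. HEPA1-6 had 5 peaks and the liver-labelled list 2, and all 7 carried the minus strand. The 5′ part of the gene held the highest-scoring peak of each list. In HEPA1-6 this was chr19:5840354-5853520, of 13167 bp, with a score of 214. In the liver-labelled list it was chr19:5840354-5847162, of 6809 bp, with a score of 205. Both peaks ended at the same base inside the gene, so the first 5127 bp of Neat1 were covered in both lists, which takes in the start used by both isoforms.

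These 5′ peaks ranked 166 of 28717 in HEPA1-6 (99.4th percentile) and 113 of 14908 in the liver-labelled list (99.2nd percentile). Each was the highest score within 100 kb of Malat1 and Neat1. Among peaks of 0.5 to 2 times their width, they stood at percentiles 98.2 and 98.5. Set against all lncRNA genes, the top score of Neat1 was number 23 in HEPA1-6 and number 9 in the liver-labelled list. Malat1 was number 36 and number 55, so Neat1 outranked Malat1 by top score in both lists while Malat1 was covered further. The HEPA1-6 peak behind the top score of Neat1 also reached into a neighbouring gene, as described next.

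Upstream of Neat1 the lists differed in how the signal was divided. Frmd8, a protein-coding gene on the same strand, ends 5493 bp before the 5′ boundary of Neat1. The HEPA1-6 peak spanned all 5493 bp between the genes and the last 2547 bp of Frmd8, so its score cannot be credited to Neat1 alone. The liver-labelled peak stopped 1682 bp upstream of Neat1 and did not reach Frmd8. A separate liver-labelled peak, chr19:5848610-5853520, began between it and Frmd8 and reached over the last 2547 bp of Frmd8. It scored 39, carried the plus strand and ended at the same base as the HEPA1-6 peak. Frmd8 held 5 peaks in each list, with 59.8% of its body covered in the HEPA1-6 list and 24.3% in the liver-labelled one.

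Within Neat1, divided into 10 equal parts from 5′ to 3′, coverage was complete in parts 1 and 2 in both lists and was 46.8% in part 3 in both. The next stretch present in both lists lay near the middle. HEPA1-6 had a peak of 3901 bp there (chr19:5832730-5836630, score 46, percentile 89.1). The liver-labelled list had a peak of 1856 bp inside it (chr19:5832761-5834616, score 33, percentile 78.5). Part 6 was covered to 100% and 77.0%. The other 3 HEPA1-6 peaks had no counterpart in the liver-labelled list. They were chr19:5838083-5838467 (score 17), chr19:5829223-5829592 (score 12) and chr19:5826121-5828135 (score 25). Their percentiles within HEPA1-6 were 36.2, 7.36 and 64.3, so 2 of them scored below the list median of 21. In parts 8, 9 and 10 of Neat1 the HEPA1-6 list covered 17.8%, 65.0% and 32.0%, and the liver-labelled list had no peak. The longest uncovered stretch measured 3137 bp in HEPA1-6. In the other list it measured 8053 bp and lay at the 3′ end. A weak peak can be missed in the shorter list, and the depth of neither list is known, so the absence of a liver-labelled peak there was not shown to be a difference between the sources.

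**Figure D2:**
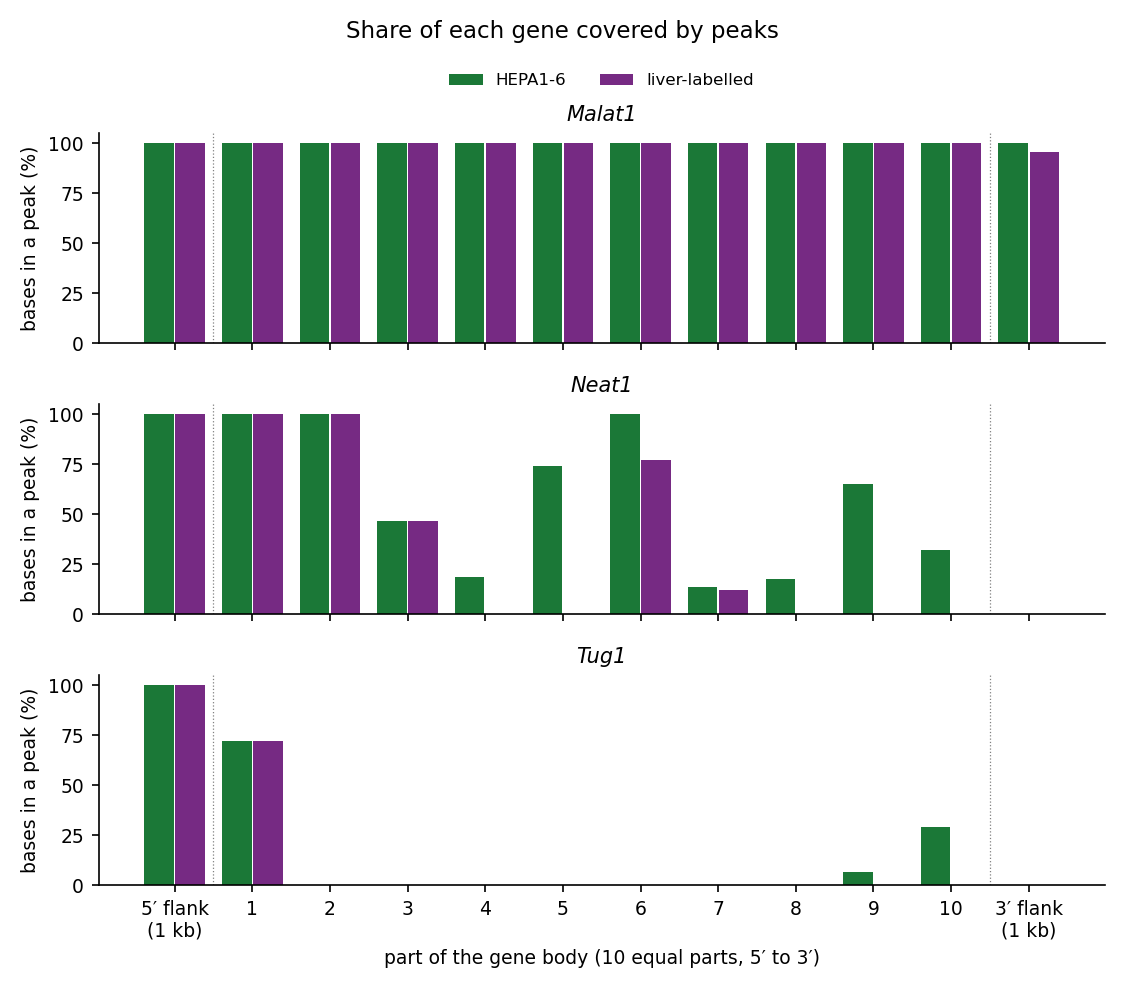
Percent of bases inside a peak (vertical axis) for 10 equal parts of the gene body from 5′ to 3′ and for the 1 kb flanks, in HEPA1-6 (green) and the liver-labelled list (purple). Malat1 is covered throughout, Neat1 completely in parts 1 and 2 and then in patches, and Tug1 to 72.0% in part 1, with a further HEPA1-6 stretch near its 3′ end.

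The 22.0 kb between Malat1 and Neat1 were mostly without peaks. Beyond the Malat1 peak itself, HEPA1-6 had 2 short peaks there without a strand, of 412 bp (score 27) and 272 bp (score 33). The liver-labelled list had none. In all, 10.1% of this stretch was covered in the HEPA1-6 list and 5.77% in the liver-labelled one, the Malat1 flank included. Malat1 and Neat1 were thus separated from each other by long stretches without a peak.

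The surroundings were rich in peaks. Across the 249.8 kb from 100 kb on one side of the pair to 100 kb on the other, 45.6% of bases lay in a HEPA1-6 peak and 22.7% in a liver-labelled peak. These shares include the peaks at Malat1 and Neat1. Of the 30 HEPA1-6 and 18 liver-labelled peaks there, 24 and 15 lay away from Malat1 and Neat1. For chromosome 19 as a whole, the shares were 4.45% and 1.78%. Of 13 protein-coding genes in this window, all 13 had a peak in the HEPA1-6 list and 9 in the liver-labelled one, while 42.0% and 29.7% of protein-coding genes at large did. Away from Malat1 and Neat1, no HEPA1-6 peak of this window scored above 72 and no liver-labelled one above 43. Malat1 and Neat1 thus stood above their neighbours in score in both lists, the Frmd8 end of the shared HEPA1-6 peak aside.

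Tug1 (gene ID 544752, chromosome 11, 3639785 to 3648814, minus strand) is 9030 bp long. Its main peak was called with the same start and the same end in both lists, chr11:3648165-3650121, of 1957 bp. It scored 89 in HEPA1-6, at rank 877 and percentile 96.9, and 50 in the liver-labelled list, at rank 1247 and percentile 91.6. Only 650 bp of the peak lay in Tug1. The next 374 bp lay between Tug1 and Morc2a, and 933 bp lay in Morc2a, a protein-coding gene for a chromatin ATPase that starts on the opposite strand. The peak carried the minus strand, that of Tug1, in HEPA1-6 and the plus strand, that of Morc2a, in the liver-labelled list. With peaks on the strand of Tug1 only, the liver-labelled share of Tug1 covered was 0 in place of 7.20%. How a strand was given to a peak is not stated in the sources used here, so the peak cannot be assigned to either transcript.

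HEPA1-6 had a second Tug1 peak of 325 bp near the 3′ end (chr11:3640424-3640748, minus strand). Its score of 20 stood at percentile 49.8, near the list median. The 7416 bp between the 2 peaks held none, and in the liver-labelled list the remaining 8380 bp of Tug1 were without a peak. Among 5483 lncRNA genes of 0.5 to 2 times its length, 409 were covered at least as far in the HEPA1-6 list and 229 in the liver-labelled one. For Malat1 the corresponding counts were 25 and 8 of 5498 genes, and for Neat1 17 and 10 of 4266, each gene itself counted.

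Both promoters under the shared peak are printed, since the peak of each list covered both windows completely. Each is a RefSeq window of 300 bases (GRCm38.p6) with the start at base 251, written on the gene's own strand with runs of GGG or longer in capitals. The Tug1 window is chr11:3648765-3649064 (minus strand), and the Morc2a window is chr11:3649187-3649486 (plus strand). The Morc2a gene as annotated begins at 3649189, so nearly all of its window, base 251 included, lies inside the gene. Its values therefore belong to a start within Morc2a, not to the gene boundary nearest Tug1.
Tug1 promoter: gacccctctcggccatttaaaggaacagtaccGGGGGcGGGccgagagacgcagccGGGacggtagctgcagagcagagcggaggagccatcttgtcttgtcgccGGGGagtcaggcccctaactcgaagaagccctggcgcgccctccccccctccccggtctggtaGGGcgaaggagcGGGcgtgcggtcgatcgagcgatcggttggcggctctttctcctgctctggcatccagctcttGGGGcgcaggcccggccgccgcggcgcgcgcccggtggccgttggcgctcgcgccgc
Morc2a promoter: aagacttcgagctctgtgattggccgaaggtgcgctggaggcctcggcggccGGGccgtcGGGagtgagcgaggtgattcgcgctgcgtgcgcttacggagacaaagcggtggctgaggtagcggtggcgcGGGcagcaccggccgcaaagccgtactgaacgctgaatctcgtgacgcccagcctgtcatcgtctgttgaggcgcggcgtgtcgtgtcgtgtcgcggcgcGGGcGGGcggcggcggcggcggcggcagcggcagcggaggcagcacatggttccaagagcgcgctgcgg
The Tug1 window had a GC content of 71.3% (percentile 92.6) and the Morc2a window one of 70.3% (percentile 91.4), both far above the 47% of Malat1. CG dinucleotides occurred 37 times in the Tug1 window, 0.971 times the number expected from its C and G content, and 46 times in the Morc2a window, 1.30 times. The Malat1 window held 10, or 0.604 times, and the median over all windows was 0.384 times. The Tug1 window had 7 runs of GGG or longer and 8 of CCC or longer, so runs of G occurred on both strands. The Morc2a window had 5 and 1, and a GC skew of 0.213 (percentile 91.1), while the skew of the Tug1 window was 0.037 (percentile 57.0). Among the 4263 windows within 5 percentage points of the GC content of Tug1, 35.4% touched a peak in the HEPA1-6 list and 24.3% in the liver-labelled one. A peak was thus more frequent at windows with the GC content of Tug1 than at those with that of Malat1, although most windows of both kinds touched none. The windows were matched on GC content only.

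The region around Tug1 was much less covered than that around Malat1. Within 100 kb on both sides, the peaks at Tug1 included, 7.13% of bases lay in a HEPA1-6 peak and 1.64% in a liver-labelled peak. These shares were close to 5.19% and 1.78% for chromosome 11. Morc2a held 6 and 3 peaks, the promoter peak included, and 5 and 2 of these lay in the body of the gene on its plus strand. The nearest protein-coding gene on the 3′ side was Smtn, the gene of the smooth muscle protein smoothelin, 100.5 kb away. It had 1 peak in HEPA1-6 (score 33) and 5 in the liver-labelled list (top score 44). The Tug1 promoter peak had the highest score within 100 kb in both lists.

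**Figure D3:**
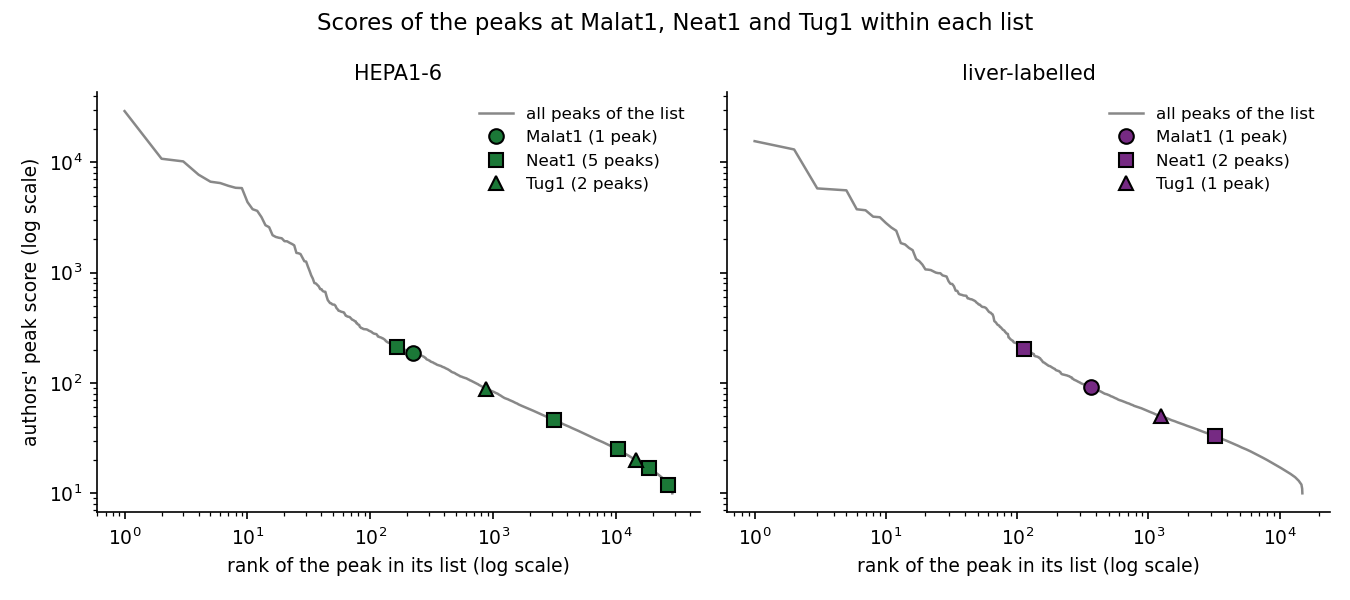
Authors' score (vertical axis, log scale) against the rank of the peak in its list (horizontal axis, log scale), for all peaks (grey line) and for those at Malat1 (circles), Neat1 (squares) and Tug1 (triangles). The 5′ peak of Neat1 and the Malat1 peak rank 166 and 222 in HEPA1-6 and 113 and 366 in the liver-labelled list, and the lower-ranked HEPA1-6 peaks lie in Neat1 and at the 3′ end of Tug1.

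The order of the top scores was Neat1, Malat1, Tug1 in both lists. The top HEPA1-6 peak of Neat1 was shared with Frmd8, and that of Tug1 was shared with Morc2a in both lists. All 8 HEPA1-6 peaks were on the minus strand, as were 3 of the 4 liver-labelled peaks, the exception being the Tug1 promoter peak. Each of the 4 liver-labelled peaks overlapped a HEPA1-6 peak, while 4 of the 8 HEPA1-6 peaks overlapped a liver-labelled one. Among all peaks, 75.9% of the liver-labelled and 31.8% of the HEPA1-6 ones overlapped a peak of the other list, so with so few peaks at the 3 genes nothing particular to them can be read from these counts. The 4 HEPA1-6 peaks without a counterpart scored 12, 17, 20 and 25, and the 4 with one scored 46, 89, 187 and 214. Over the gene with 1 kb flanks, bases covered in both lists made up 99.5% of those covered in either at Malat1, 62.4% at Neat1 and 83.5% at Tug1. At each of the 3 genes, 100% of the liver-labelled bases were also covered in HEPA1-6. Over the whole liver-labelled list this share was 83.05%.

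Genes of most similar pattern were taken from lncRNA genes of 0.5 to 2 times each gene's length, by the Euclidean distance over 4 numbers (percent covered and percentile of the top score, in each of the 2 lists). For Malat1 they were Gas5 (distance 1.24 of 5496 genes compared), Gm46775 (2.10) and 2900052L18Rik (6.53). All 3 were covered to 100% in both lists. Gas5, a host gene of small nucleolar RNAs, had top scores of 158 and 74. For Neat1 the closest genes were 5430405H02Rik, Gm52531 and 4930557K07Rik, at distances of 10.1, 15.0 and 18.04, so no gene of its length class was as close as for Malat1. For Tug1 they were Gm36634 (3.81), Gm35344 (5.19) and Gm5113 (5.68), with top scores of 137, 63 and 70 in HEPA1-6. Of these 9 genes, 2900052L18Rik alone had no protein-coding gene within 1 kb.

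Of 42 other well-known lncRNA genes listed, 39 were found in the gene table. Of these, 21 had a peak in HEPA1-6 (53.8%, 95% Wilson interval 38.6 to 68.4%) and 17 in the liver-labelled list (43.6%, 29.3 to 59.02%). Without the 1 kb flanks, the counts were 21 and 15. With the flanks, the shares over all lncRNA genes were 13.6% and 8.97%. Both lists had a peak at 16, HEPA1-6 alone at 5 and the liver-labelled list alone at Lockd, named after its values were seen. The highest HEPA1-6 scores were those of Epb41l4aos (280) and Snhg17 (185), and the highest liver-labelled scores those of Zfas1 (225) and Epb41l4aos (145). Snhg17 and Zfas1 are host genes of small nucleolar RNAs. The top score of 1 of these 39 genes in HEPA1-6 and of 5 in the liver-labelled list was above that of Malat1. Among the 5 was Snhg8, whose liver-labelled peak (score 95) lay in the flank only and covered 0% of the gene. The median share covered of the 39 genes was 2.96% (HEPA1-6) and 0% (liver-labelled), while Malat1 was at 100%. Full coverage was not particular to Malat1, however. Gas5 and Snhg15 were also covered to 100% in both lists. In HEPA1-6 so were Snhg1, Snhg8, Snhg17, Zfas1 and Epb41l4aos. These genes were named here after their values were seen. Xist, the RNA that coats the inactive X chromosome, was covered to 6.92% in HEPA1-6, by 2 peaks with a top score of 17, and held no liver-labelled peak. Tsix, of the same list, also held 2 HEPA1-6 peaks with a top score of 17. Whether they are the same peaks was not examined, so they are not credited to Xist alone.

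Genes for the proteins that share nuclear bodies with these RNAs held peaks more often than protein-coding genes at large. This was not particular to them. Cell cycle genes did so too, with 28 of 30 (93.3%) in the HEPA1-6 list and 21 of 30 (70%) in the liver-labelled one. Of 16 nuclear speckle protein genes, 16 had a peak in the HEPA1-6 list (100%, 80.6 to 100%) and 15 in the liver-labelled one (93.8%, 71.7 to 98.9%). The background shares were 42.0% and 29.7%. The gene lists were chosen with earlier results of these data known, so the shares are a description and not independent support. Srsf6, a splicing factor gene, led both lists with scores of 232 and 145 and was covered to 100% in both. Srsf7 (204) came next in HEPA1-6 and Srsf3 (126) in the liver-labelled list. Both are also splicing factor genes.

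Of 18 paraspeckle protein genes, 17 had a peak in the HEPA1-6 list (94.4%, 74.2 to 99.01%) and 15 in the liver-labelled one (83.3%, 60.8 to 94.2%). Hnrnpk led both lists with scores of 375 and 186. It encodes an RNA-binding protein. The core paraspeckle genes Sfpq, Nono and Pspc1 differed among themselves. Sfpq held 7 and 2 peaks with top scores of 80 and 89, and Nono held 7 HEPA1-6 peaks (top score 29) and no liver-labelled one. Pspc1 held none in either list. These 3 were named after their values were seen.

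Another list held 13 genes for enzymes that act on such RNAs: subunits of RNase P, the tRNA 3′ end nuclease Elac2, and the RNA methyltransferases Mettl3 and Mettl16. Of these, 10 had a peak in the HEPA1-6 list (76.9%, 49.7 to 91.8%) and 9 in the liver-labelled one (69.2%, 42.4 to 87.3%). The highest scores were those of the RNase P subunit genes Pop7 (95) and Pop5 (76) in HEPA1-6, and Pop1 (69) and Rpp21 (42) in the liver-labelled list. None of the 13 exceeded the top score of Malat1 in its list. In HEPA1-6, 2 nuclear speckle and 2 paraspeckle protein genes did, and in the liver-labelled list 3 and 2. Coverage of at least 50% of the gene was less frequent, at 9 and 4 nuclear speckle, 8 and 2 paraspeckle, and 3 and 1 enzyme genes in HEPA1-6 and the liver-labelled list. Of all protein-coding genes, 9.31% and 3.41% were covered that far. None of the genes in these 4 lists was covered further than Malat1, which is at the upper limit of the scale. Some of them also reached that limit. The expression and length of the listed genes were not matched to the background, and their part in these shares was not tested. The intervals cover counting error over genes only and are not a test against the background shares.

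**Figure D4:**
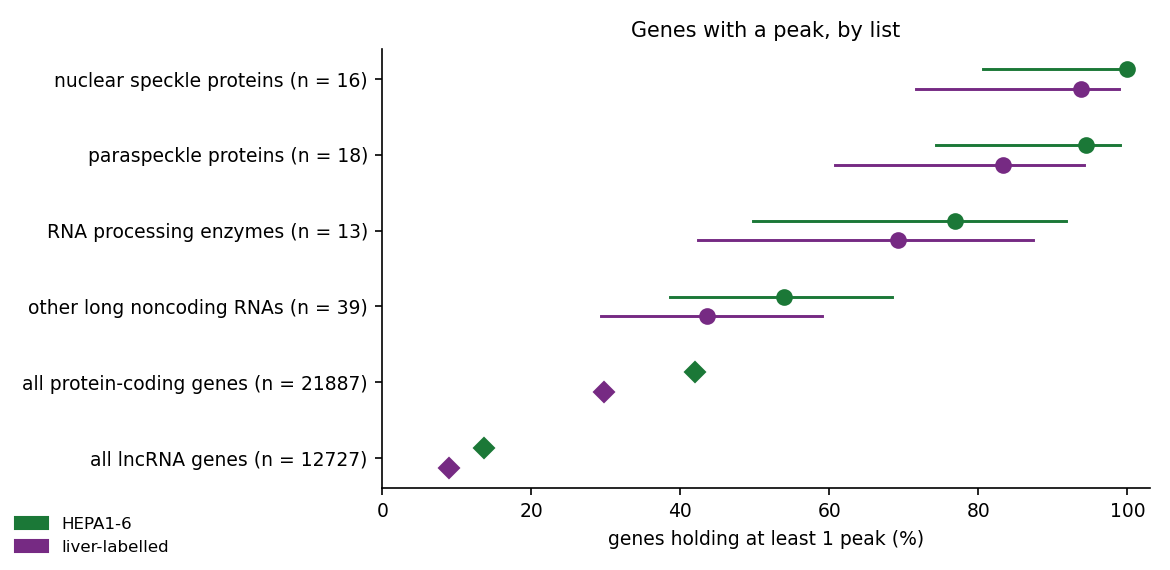
Percent of genes with at least 1 peak (horizontal axis) in the 4 gene lists (circles, with 95% Wilson intervals as lines) and in all protein-coding and all lncRNA genes (diamonds), in HEPA1-6 (green) and the liver-labelled list (purple). The nuclear speckle genes are at 100% and 93.8% and the other lncRNA genes at 53.8% and 43.6%, against 42.0% and 29.7% of protein-coding and 13.6% and 8.97% of lncRNA genes.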

How the data were processed

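R-loops were mapped by S9.6 immunoprecipitation of genomic DNA, following a published R-loop mapping protocol per the labels' protocols. As background, that protocol cuts DNA with restriction enzymes, and whether peak edges follow the cut sites was not tested. The submitters' processing notes name the build mm10 and CASAVA 1.8.2, cutadapt, Bowtie2, bedtools, SAMtools and MACS2, with no roles. Each list deposited by the authors gives position, score and strand of peaks called on a merged IP against input, per the peak names. Thresholds, score scale and depth are not given in the sources used here.

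With Python 3.11.15, NumPy 2.4.6 and SciPy 1.17.1, peaks were intersected (overlap of at least 1 bp, 1-based coordinates) with RefSeq genes of GRCm38.p6 on the autosomes, X and Y. Covered shares are over the gene body, and percentiles count peaks of the same list with an equal or lower score. The interval functions recovered all 200 windows tested on simulated data. No test was run, because each source has 1 pooled list.

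Named were the 3 genes, the nearest protein-coding genes, genes overlapping their windows, the 2 highest-scoring genes of each list and the 3 lncRNA genes of most similar pattern; some genes this rule names are not reported here. Genes and lists were chosen with earlier results of these data known. Of the 42 other lncRNA genes, 3 were not matched by symbol. Alternatives were other flanks, the higher-scoring 50% of peaks, equal numbers of peaks, the peak midpoint, peaks on the gene's strand and other reference sets for ranks.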

Additional observations from a re-analysis of the deposited data

How the results depend on the processing

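Of 144 values recomputed under an alternative, 99 stayed within the 95% binomial interval of the reported value or within 1.5 times the reported count, and 45 moved. The interval treats single bases or peaks as independent. A HEPA1-6 percentile of Malat1 that went from 99.2 to 99.4 was therefore counted as moved. The split is a label and not a measure of robustness. All 3 genes kept a peak in both lists under each alternative for the number of peaks. With the higher-scoring 50% of each list, Neat1 held 3 HEPA1-6 peaks and Tug1 held 1, the HEPA1-6 shares covered were 53.2% and 7.20%, and the lists overlapped by 66.3% at Neat1 and 100% at Tug1. With equal numbers of peaks, Neat1 again held 3, with 53.2% covered and an overlap of 66.3%. With 1 kb flanks counted, the liver-labelled shares were 99.5% (Malat1), 35.1% (Neat1) and 15.0% (Tug1), and that of Tug1 in HEPA1-6 was 17.9%. With peaks on the gene's strand only, the liver-labelled share of Tug1 was 0. Without flanks the lists overlapped by 100% at Malat1, 59.2% at Neat1 and 66.7% at Tug1, and with 2 kb flanks by 92.8% at Malat1 and 85.8% at Tug1. Among peaks of 0.5 to 2 times the width, percentiles in HEPA1-6 and the liver-labelled list were 97.7 and 91.7 (Malat1), 98.2 and 98.5 (Neat1), and 97.2 and 90.05 (Tug1). Among peaks with a strand they were 99.4 and 97.9 (Malat1) and 99.5 and 99.5 (Neat1), and among peaks that overlap a gene 99.4 and 98.0 (Malat1) and 99.5 and 99.6 (Neat1). The order of Malat1, Neat1 and Tug1 by share covered was the same in each setting. For the gene lists, only the requirement of 50% coverage moved the counts by more than 1.5 times, in all 12 cases. No paired analysis was possible because both replicates of a source were merged into 1 list, and no replicate could be left out. Depth is unknown, which limits each statement on a missing peak.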

Other observations

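Peak edges coincided between the lists at Tug1 and Neat1 but not at Malat1. Across both lists, 11455 pairs of peaks overlapped, and the start was the same base in 26.3% of them, the end in 26.1% and both in 6.29%. The Tug1 promoter pair shared both edges. The 5′ peaks of Neat1 shared the edge inside the gene, at 5840354, and the HEPA1-6 peak shared its other edge, at 5853520, with the separate liver-labelled peak over the end of Frmd8. The Malat1 peaks shared neither edge, and those in the middle of Neat1 did not either. The positions of restriction sites were not analysed here.

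Strand also switched at positions called identically. Among 682 pairs with both edges in common and a strand on each peak, 11.9% had opposite strands, as did the Tug1 pair. Among all 10990 overlapping pairs of stranded peaks, the share was 14.0%. The liver-labelled peak over the end of Frmd8 carried the plus strand although both Frmd8 and Neat1 lie on the minus strand, and the HEPA1-6 peak over the same bases carried the minus strand.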
